A study of Mus musculus with 16 samples.

Results

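The collagen chain genes of mouse muscle stem cells (MuSCs) are described here, across 2 genotypes and 2 states of the muscle. The members were all genes whose symbol has the form Col, a number, a and a number, which took 44 of the 24411 genes listed. They were sorted by textbook knowledge into 11 fibrillar chains, 8 basement membrane chains (types IV, XV and XVIII) and 25 other chains, among them the 6 chains of type VI. The RNA came from MuSCs isolated by fluorescence-activated cell sorting as CD45-, CD31-, CD11b- and Sca1- cells that carried α7-integrin and VCAM or CD34. Control mice, labelled Wildtype, were compared with TRF2MuSC-cKO mice, in which tamoxifen given to adults drives Cre from the Pax7 locus and removes the floxed gene of the telomere-binding protein TRF2 (Terf2) from Pax7+ cells only. All mice had a C57BL/6 background, and tamoxifen was given 7 times from an age of 8 to 10 weeks. The labels state neither the sex nor the age of the mice behind a library. Muscles were uninjured, or had received 10 µl of notexin, a snake venom toxin that kills muscle fibres, 3 days earlier (3 DPI). Each of the 4 groups had 4 libraries, which the study calls biological replicates.

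Collagens are secreted as trimers of chains that wind into a rope-like helix, so a type made of several chains needs the product of each gene. Fibrillar collagens (types I, II, III, V, XI, XXIV and XXVII) assemble into the fibrils of the interstitial matrix, in which type V is a minor partner that sets the fibril diameter. Type IV chains form the sheet-like network of the basement membrane, types XV and XVIII sit in or beside that membrane, and type VI forms beaded filaments that link it to the fibrils. A quiescent MuSC lies between its fibre and the basement membrane and makes part of this niche itself. Collagen V that MuSCs secrete is a known ligand of the calcitonin receptor (Calcr) on the same cells, and collagen VI of the surrounding matrix is known to sustain their self-renewal.

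Totals ran from 620506 to 1351130 estimated counts per library, and 15387 to 21879 genes had at least 1 count. A count here is the number of reads assigned to a gene, and CPM is that count per 1000000 counts of the library after scaling of the libraries to each other. Terf2 had 71.5, 94.5, 66.3 and 73.1 CPM in the uninjured control libraries and 49.7, 46.7, 58.7 and 27.2 CPM in the uninjured TRF2MuSC-cKO libraries, with no overlap, although the difference missed the threshold (log2 fold change -0.62 ± 0.27 (SE), adjusted p = 0.199). At 3 DPI it had 35.5, 48.6, 48.2 and 42.8 CPM in control libraries and 52.6, 21.9, 66.9 and 89.7 CPM in the libraries labelled TRF2MuSC-cKO, which overlapped, so that Terf2 does not check the genotype labels at 3 DPI. In the library labelled TRF2MuSC-cKO at 3 DPI, replicate 3, 15387 genes were detected against 19996 to 21879 in the other libraries, and the chain tests and the main levels at 3 DPI are also given without it, a choice made after the data were seen. Pax7, the defining MuSC gene, was detected in every library, at 694 to 1487 CPM in the uninjured libraries and at 24.5 to 184 CPM at 3 DPI. In RNA pooled over many cells, fewer cells of a type and less RNA per cell cannot be told apart.

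The stretches before the start sites of 3 chains are shown because the genes were among those that differed most between the genotypes. They are the 250 bases before the RefSeq start on GRCm38.p6, 5′ to 3′ on the strand of the gene. Capitals mark matches, on either strand, to the CCAAT box, the TATA box (TATAAA), the E-box CAGCTG of myogenic factors, the GC box (GGGCGG, in capitals also where it lies on the other strand) and the telomere repeat TTAGGG that TRF2 binds.
Col15a1, chr4:47207762-47208011, plus strand: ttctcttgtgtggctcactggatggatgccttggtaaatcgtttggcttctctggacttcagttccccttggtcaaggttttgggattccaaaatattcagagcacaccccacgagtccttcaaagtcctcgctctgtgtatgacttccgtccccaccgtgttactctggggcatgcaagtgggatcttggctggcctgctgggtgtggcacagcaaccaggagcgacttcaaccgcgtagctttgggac
Col3a1, chr1:45311288-45311537, plus strand: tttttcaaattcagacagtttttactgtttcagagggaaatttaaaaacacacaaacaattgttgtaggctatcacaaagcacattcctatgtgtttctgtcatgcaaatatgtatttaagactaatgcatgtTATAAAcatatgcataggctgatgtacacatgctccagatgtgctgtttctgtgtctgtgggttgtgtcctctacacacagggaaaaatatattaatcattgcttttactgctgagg
Col5a3, chr9:20815068-20815317, minus strand: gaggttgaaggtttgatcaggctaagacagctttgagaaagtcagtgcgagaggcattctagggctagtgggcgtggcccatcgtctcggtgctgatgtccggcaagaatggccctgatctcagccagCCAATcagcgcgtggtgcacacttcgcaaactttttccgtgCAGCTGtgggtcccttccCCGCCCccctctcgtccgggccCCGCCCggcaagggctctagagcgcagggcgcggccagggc

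The Col3a1 stretch held TATAAA 117 bases before the start and had a GC content of 35.2%. The Col5a3 stretch held CCAAT at 122, CAGCTG at 81 and the GC box at 63 and 41 bases before the start, with a GC content of 62.8%. The Col15a1 stretch held none of these letters and had a GC content of 53.6%, beside a median of 52.4% over the genes of the RefSeq table. In windows from 250 bases before to 50 bases after the start, which RefSeq gave for 35 of the 44 chain genes (38 windows), GGGCGG stood in 23 windows (60.5%) against 35.7% of all 32851 windows. A pattern of 4 runs of GGG with 1 to 7 bases between them, which can fold into a G-quadruplex, stood in 14 windows (36.8%) against 18.5% of all. The windows of Col15a1, Col3a1 and Col5a3 were not among the 14. TTAGGG stood in 5 windows (13.2%) against 10.6%, CCAAT in 13 (34.2%) against 37.4%, TATAAA in 5 (13.2%) against 13.6% and CAGCTG in 7 (18.4%) against 16.3%. CAGCTG reads the same on both strands, and none of the patterns overlaps another in the letters shown. A match is a run of letters, and binding at these windows was not tested.

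To compare chains with each other, an abundance that divides by transcript length was used. It was computed from the deposited table of abundances rescaled to library totals, as a share of each library in parts per 1000000, and is given as APM. In uninjured control MuSCs a few chains carried most of the collagen RNA. Col3a1, the only chain of type III, was highest at 2109 ± 409.7 APM (mean ± SD, n = 4) and made up 32.5 to 35.7% of the summed abundance of all 44 chains. The 5 leading chains, Col3a1, Col4a1, Col6a1, Col5a3 and Col15a1, together held 69.7 to 70.6% of it. Col4a1 (612 ± 107), Col6a1 (598 ± 52.1) and Col5a3 (597 ± 96.2) followed at levels that overlapped between libraries. Below a gap came Col15a1 (345 ± 56.1) and Col4a2 (333 ± 55.2), which overlapped, and below another gap Col5a2, Col6a2 and Col5a1. The chains of type I, Col1a1 (175 ± 53.5) and Col1a2 (86.9 ± 39.0), stood below all of these by their means, although type I is the main fibrillar collagen of whole muscle.

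The order was different in the other groups. In uninjured TRF2MuSC-cKO MuSCs Col3a1 still ranked first by its mean, at 558 ± 224 APM, but overlapped with Col4a1 (337 ± 58.6), and the 5 leading chains held 44.4 to 53.0% of the sum. At 3 DPI the chains of type I ranked next to Col3a1 in both genotypes, with Col1a1 at 733 ± 155 and Col1a2 at 547 ± 88.2 APM in control libraries and at 804 ± 239.5 and 636 ± 152 in libraries labelled TRF2MuSC-cKO. Many chains lay near the floor of the assay. Olfactory receptor genes, taken as a class to be mostly silent in MuSCs, served as a measure of this floor. The 95th percentile of 1107 of them was at 12.6, 22.1, 14.9 and 30.6 APM in the uninjured control, uninjured TRF2MuSC-cKO, control 3 DPI and labelled TRF2MuSC-cKO 3 DPI groups, and 26, 23, 26 and 21 of the 44 chains were above it. Without replicate 3 of the last group its floor was at 23.8 APM with 23 chains above, and Col1a1 (794 ± 292, SD, n = 3) and Col1a2 (613 ± 178) still ranked next to Col3a1 (1239 ± 385). Values in every library are given for the 17 chains that were called in a comparison or led a group. The means of the other 27 chains lay between 4.35 and 73.0 APM in uninjured control MuSCs and between 10.5 and 78.5 in uninjured TRF2MuSC-cKO MuSCs, with Col18a1 the highest of them in every group.

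**Figure D1:**
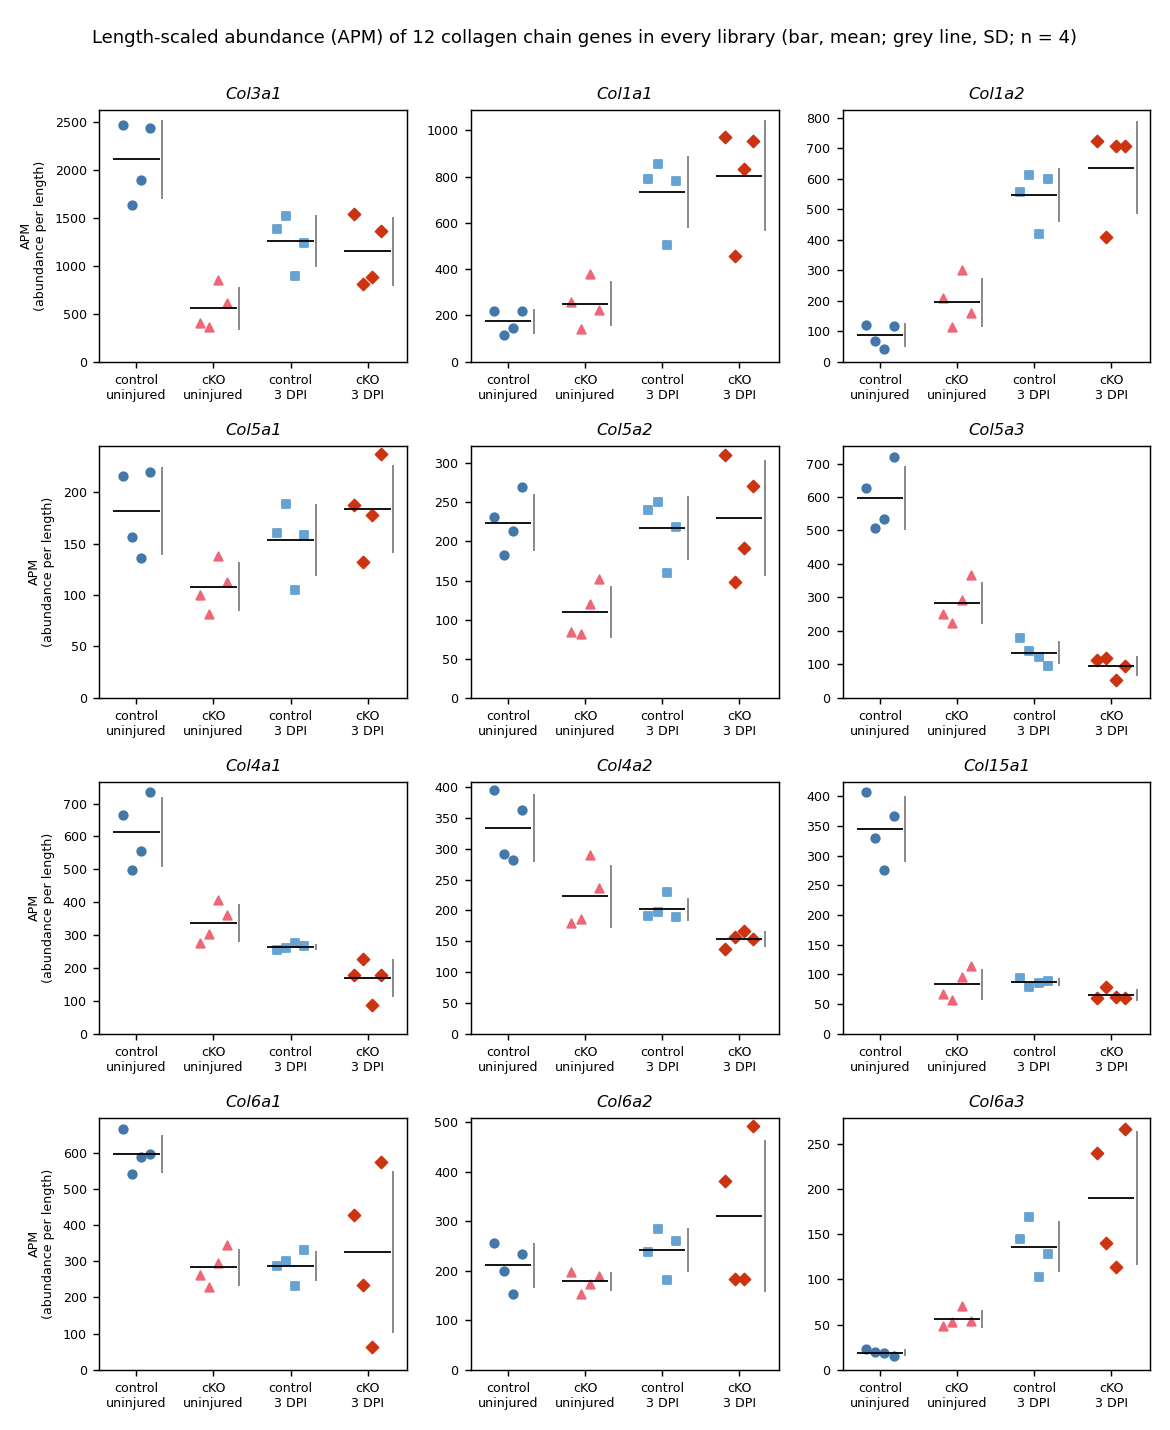
APM (abundance per transcript length, linear axes from 0) of 12 collagen chain genes in each of the 16 libraries, with the mean as a bar and the SD as a grey line (n = 4 per group). Col15a1, Col5a3 and Col4a1 were highest in every uninjured control library, and Col1a1, Col1a2 and Col6a3 were higher in every 3 DPI library than in every uninjured library.

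The first comparison asked how deletion of TRF2 changes the transcriptome of MuSCs in uninjured muscle. A gene was called when the edgeR quasi-likelihood test gave a Benjamini-Hochberg adjusted p under 0.02 over all genes tested and the fold change exceeded 1.5. Of 42 chains tested, 9 were lower and 2 were higher in TRF2MuSC-cKO MuSCs. Over all 14048 genes tested, 3.22% were called, 2.63% as lower and 0.584% as higher. The sample labels hold a record code that several libraries share and whose meaning they do not state. In uninjured muscle no such code was found in both genotypes, so the code and the genotype cannot be told apart there. The chains that fell were 8 of the 9 most abundant ones in uninjured control MuSCs, Col3a1, Col4a1, Col6a1, Col5a3, Col15a1, Col4a2, Col5a1 and Col5a2, together with Col26a1. The largest falls were those of Col15a1 (4.79-fold) and Col3a1 (4.36-fold), and the chains that rose were Col6a3 (2.43-fold) and Col20a1. By class, 4 of 11 fibrillar, 3 of 8 basement membrane and 2 of 23 tested other chains were lower, and the 2 higher chains were both of the other class. In 9 chains, the called ones, every TRF2MuSC-cKO library lay below every control library, against 9.18% of all genes, and in 5 chains every one lay above, against 3.43%.

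The calls depended on the processing. Col15a1 was called under every alternative tried. It alone was called with the rescaled table, where 0.101% of all genes were called in place of 3.22%. With all 16 libraries in 1 fit, Col15a1, Col3a1, Col4a1, Col5a2 and Col5a3 were lower and none was higher, so that Col6a1, Col6a3 and Col20a1 were not called there. In that fit 0.416% of all genes were lower and 0.0713% higher. With limma, Col15a1, Col3a1 and Col6a1 were lower and Col6a3 and Col20a1 higher, against 1.01% and 1.12% of all genes. With libraries scaled by their size alone, 7 chains were lower and 3 were higher, against 1.51% and 1.25% of all genes. With DESeq2 and with no filter the same 11 chains were called and 1 more was higher, Col27a1 and Col1a2 respectively. These alternatives called 4.43% and 2.53% of all genes.

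Among the fibrillar chains, Col3a1 had 6289.9, 4041, 4326 and 6597 CPM in control libraries and 737, 757, 1693 and 1268 CPM in TRF2MuSC-cKO libraries. The highest of the latter was less than the lowest control value, and the log2 fold change was -2.12 ± 0.23 (SE), adjusted p = 2.9e-08. All 3 chains of type V, the collagen that MuSCs secrete as a ligand of Calcr, were lower. Col5a3, which joins type V trimers in a few tissues including muscle, had 1745, 1373, 1337 and 2138 CPM in control and 501, 510.1, 635 and 832 CPM in TRF2MuSC-cKO libraries (-1.28 ± 0.20 (SE), adjusted p = 4.4e-05). Col5a2 had 702, 538, 580.2 and 869.7 CPM and 183, 201, 285 and 376 CPM (-1.24 ± 0.21 (SE), adjusted p = 0.00013). Col5a1, which every common type V trimer needs, had 835, 586, 469.7 and 907 CPM and 279, 257, 417 and 355 CPM (-0.97 ± 0.21 (SE), adjusted p = 0.00212). None of the 3 chains overlapped between the genotypes. The call of Col5a1 was lost without control replicate 4, and with limma, with all 16 libraries in 1 fit and with the rescaled table.

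The chains of type I did not follow Col3a1. Col1a1 had 473, 240.4, 276 and 501 CPM in control and 399, 249, 634 and 391 CPM in TRF2MuSC-cKO libraries, which overlapped (0.30 ± 0.24 (SE), adjusted p = 0.519). Col1a2, its partner in the type I trimer, had 282, 156, 86.0 and 296 CPM and 352, 218, 552 and 302 CPM, also with overlap (0.93 ± 0.39 (SE), adjusted p = 0.23), and was called higher when no filter on low counts was used. The 5 remaining fibrillar chains, Col2a1, Col11a1, Col11a2, Col24a1 and Col27a1, gave log2 fold changes of 0.47 to 0.87 at low levels and none was called. Col27a1 (0.87 ± 0.25 (SE), adjusted p = 0.0271) had no overlap and missed the threshold by its adjusted p, and was called higher with library size alone and with DESeq2. The median log2 fold change of the 11 fibrillar chains was 0.47, against 0.058 over all genes tested, and so had the opposite sign to the 4 called chains.

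Among the basement membrane chains, too, the called members were abundant ones. Col15a1, the chain of type XV, had 989.9, 776, 599.9 and 952 CPM in control libraries and 117, 112, 182 and 225 CPM in TRF2MuSC-cKO libraries. No library came near the other group, and the log2 fold change was -2.26 ± 0.22 (SE), adjusted p = 1.5e-09. Col4a1 and Col4a2, whose products form the common type IV trimer, had 2015, 1462, 1508 and 2372 and 1167, 835, 745 and 1141 CPM in control libraries. In TRF2MuSC-cKO libraries they had 604, 746, 963 and 893 and 381, 446, 668 and 565 CPM, again below every control value, with log2 fold changes of -1.07 ± 0.20 (SE), adjusted p = 0.000443 for Col4a1 and -0.79 ± 0.20 (SE), adjusted p = 0.0119 for Col4a2. The call of Col4a2 was lost when any of 6 of the 8 libraries was left out, and with library size alone, limma, all 16 libraries in 1 fit and the rescaled table, with adjusted p-values of up to 0.135 over all its alternatives. Col18a1, which carries the endostatin fragment, differed by -0.05 ± 0.21 (SE), adjusted p = 0.923. The chains Col4a3 to Col4a6, which form the type IV networks of kidney and other specialised membranes, had at most 30.7 APM in any library and none was called.

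Within type VI the 3 classic partners differed from each other. Col6a1 had 1205, 946, 952 and 1148 CPM in control and 342, 337, 417 and 509 CPM in TRF2MuSC-cKO libraries (-1.28 ± 0.19 (SE), adjusted p = 2.3e-05). Col6a2 had 434, 328, 233 and 422 CPM and 241, 209.9, 230.4 and 260.1 CPM, with overlap (-0.46 ± 0.20 (SE), adjusted p = 0.182). Col6a3, the long chain that a type VI trimer of these products also needs, had 106, 89.1, 80.2 and 75.1 CPM in control and 155, 182, 255 and 195 CPM in TRF2MuSC-cKO libraries, so that every TRF2MuSC-cKO library lay above every control library (1.28 ± 0.21 (SE), adjusted p = 0.000101). Col6a1 thus fell and Col6a3 rose, each without overlap. Col6a4, Col6a5 and Col6a6, the chains that can take the place of Col6a3, gave log2 fold changes of 0.80, 0.57 and 0.35 at low levels and were not called.

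Of the remaining other chains, Col20a1, one of the fibril-associated chains, had 93.8, 43.2, 51.2 and 22.4 CPM in control and 116, 177, 126 and 119.9 CPM in TRF2MuSC-cKO libraries (1.47 ± 0.28 (SE), adjusted p = 0.000599). Col26a1, a little studied chain with short collagen stretches, had 92.0, 50.4, 73.2 and 86.8 CPM and 36.7, 9.35, 45.8 and 19.1 CPM (-1.33 ± 0.34 (SE), adjusted p = 0.0114). Both were without overlap, but the call of Col26a1 was lost when any of 5 libraries was left out, and under the same 4 alternatives as that of Col4a2. Col19a1, which is known from early muscle differentiation, had 182, 127, 156 and 205 CPM and 130.2, 81.0, 98.8 and 99.4 CPM and overlapped (-0.58 ± 0.22 (SE), adjusted p = 0.111). Col14a1, a fibril-associated chain of connective tissue, had 24.1, 10.8, 36.0 and 23.4 CPM and 45.0, 41.6, 41.5 and 24.5 CPM (0.83 ± 0.37 (SE), adjusted p = 0.206). Col8a1, a network-forming chain of vessel walls, had 45.6, 31.5, 23.3 and 28.3 CPM and 39.1, 53.0, 24.3 and 53.1 CPM (0.52 ± 0.33 (SE), adjusted p = 0.396). Each of the last 3 overlapped between the genotypes and was not called.

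Over all 42 chains tested, 15 had a log2 fold change below 0 and 27 above 0, with a median of 0.33. Among the 25 tested chains that are not given library by library, 21 were above 0, with a range of -0.69 to 1.06, and none was called. The median level of the olfactory receptor genes moved in the same direction, from 4.76 APM in uninjured control MuSCs to 8.64 in TRF2MuSC-cKO MuSCs. Its part in the values of the scarce chains was not tested.

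**Figure D2:**
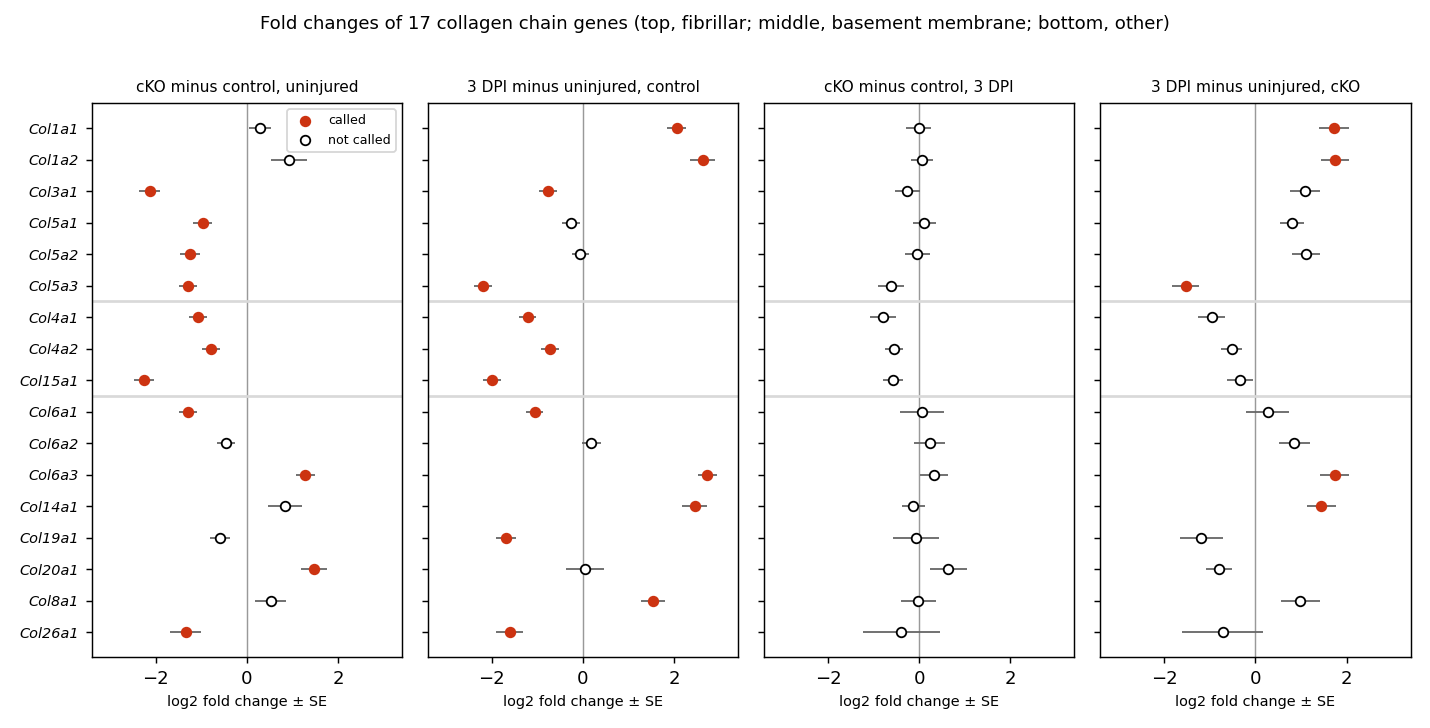
Log2 fold changes of 17 collagen chain genes (points, with the SE as lines) in the 4 pairwise comparisons, grouped by class, with called chains filled and the others open. In uninjured muscle the called fibrillar and basement membrane chains lie to the left of 0, from -0.79 for Col4a2 to -2.26 for Col15a1, and at 3 DPI no chain was called between the genotypes.

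The summed abundance of a class gives the balance between the families. The fibrillar sum was 3946, 2722, 3040.4 and 4042 APM in uninjured control libraries and 1454, 1108, 2193 and 1739.9 in TRF2MuSC-cKO libraries. The basement membrane sum was 1589, 1198, 1242 and 1579 and 674, 669, 929.6 and 854, and neither sum overlapped between the genotypes. The sum of the other chains was 1383, 1119, 1169.7 and 1256 and 1134, 884, 1072 and 1067, and overlapped. In counts, all 44 chains took 1.10 to 1.49% of a control library and 0.562 to 0.907% of a TRF2MuSC-cKO library. The members of a sum are led by 1 or 2 chains, Col3a1 for the fibrillar, Col4a1 for the basement membrane and Col6a1 for the other class, so that these sums restate the chains above and carry no test.

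**Figure D3:**
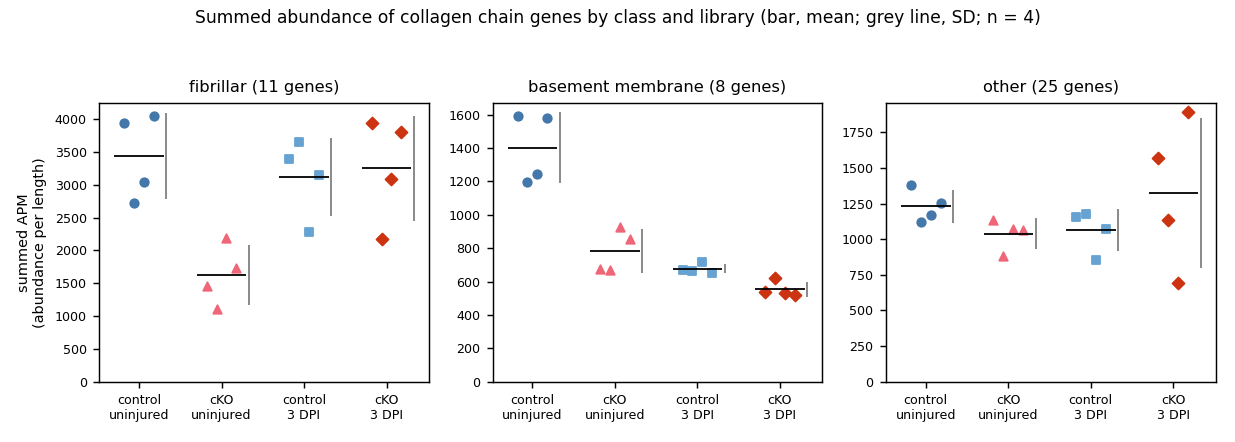
Summed APM (abundance per transcript length) of the 11 fibrillar, 8 basement membrane and 25 other collagen chain genes in each library, with the mean as a bar and the SD as a grey line (n = 4 per group). The basement membrane sum had means of 1402, 782, 677 and 553 in the uninjured control, uninjured TRF2MuSC-cKO, control 3 DPI and labelled TRF2MuSC-cKO 3 DPI groups, whereas the fibrillar sum had means of 3438, 1624, 3116 and 3248. Without replicate 3 the last group had means of 559.6 and 3303.

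A ratio of 2 chains within a library does not depend on how libraries are scaled to each other. The ratio of Col3a1 to Col1a1 abundance was 11.2, 14.1, 13.2 and 11.1 in uninjured control libraries and 1.56, 2.56, 2.25 and 2.73 in TRF2MuSC-cKO libraries. At 3 DPI it was 1.74, 1.78, 1.77 and 1.58 in control libraries and 1.59, 1.76, 1.07 and 1.43 in those labelled TRF2MuSC-cKO. The uninjured control libraries stood alone, and no other library reached 3. The ratio of Col6a1 to Col6a3 was 32.2 ± 5.84 (SD, n = 4) in uninjured control, 5.09 ± 1.07 in uninjured TRF2MuSC-cKO, 2.15 ± 0.349 in control 3 DPI and 1.54 ± 0.696 in labelled TRF2MuSC-cKO 3 DPI libraries. The first 3 of these groups did not overlap each other. The last, which was 1.87 ± 0.253 (n = 3) without replicate 3, holds 1.79, 1.67, 0.55 and 2.16, with the lowest value in replicate 3. Col6a3 stood at 19.0 ± 3.51 APM in uninjured control libraries, above the floor of 12.6 APM there but near it. The size of the ratio in that group is therefore not exact.

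The ratio of Col5a3 to Col5a1 separated by injury rather than by genotype. It was 3.34 ± 0.439 in uninjured control and 2.65 ± 0.475 in uninjured TRF2MuSC-cKO libraries, which overlapped, and 0.905 ± 0.274 and 0.551 ± 0.265 at 3 DPI, the latter 0.634 ± 0.251 without replicate 3. Col4a1 to Col4a2 was 1.84 ± 0.176 in uninjured control libraries and 1.52 ± 0.0933, 1.32 ± 0.0830 and 1.11 ± 0.407 in the other groups. The last of these was 1.31 ± 0.137 without replicate 3. Every uninjured control library was above all others in this ratio. Col1a1 to Col1a2, the partners of type I, was 2.22 ± 0.862, 1.29 ± 0.0833, 1.33 ± 0.0973 and 1.25 ± 0.116 in the same order of groups, and Col5a1 to Col5a2 was 0.811 ± 0.126, 1.02 ± 0.202, 0.703 ± 0.0456 and 0.826 ± 0.149.

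**Figure D4:**
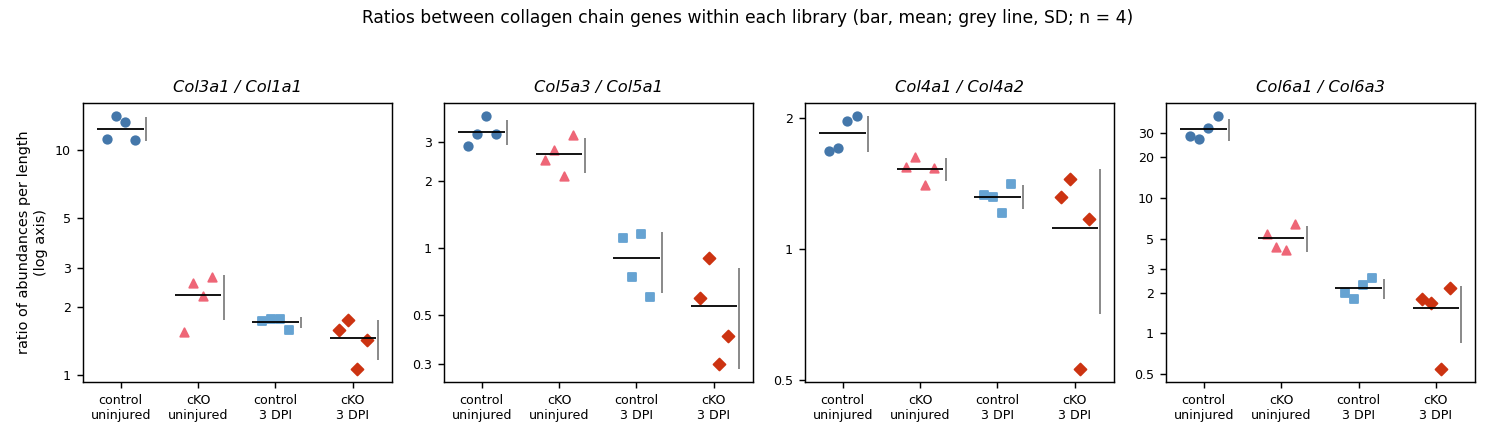
Ratios of the abundance per length of 2 collagen chain genes within each library (log axes), with the mean as a bar and the SD as a grey line (n = 4 per group). Col3a1 to Col1a1 was 11.1 to 14.1 in uninjured control libraries and below 3 in all others, and Col6a1 to Col6a3 had means of 32.2, 5.09, 2.15 and 1.54 in the groups from left to right.

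Markers of MuSCs and of other cells were read beside these values. The 8 MuSC markers summed to 3325 to 5129 CPM in uninjured control and 1837 to 2804 CPM in uninjured TRF2MuSC-cKO libraries. Of the 8, 5 were called lower, while 2.63% of all genes tested were called lower and 0.584% higher. The 10 markers of fibroadipogenic progenitors, the collagen-producing interstitial cells of muscle, summed to 1606 to 2303 CPM and 1060 to 1356 CPM. Most of this sum was Gsn, with 1589, 1393, 1262 and 1883 CPM and 653, 742, 658 and 909.8 CPM, whereas 5 of the 7 tested markers had a log2 fold change above 0 (median 0.65). Of the 7, 3 were higher in every TRF2MuSC-cKO library than in every control library, against 3.43% of all genes. Of these 10 genes, Dcn (1.20) and Smoc2 (1.31) were called higher on the log2 scale and Dpt (-1.65) and Gsn (-0.92) lower, and Pdgfra, the defining gene, had 19.7, 42.3, 50.0 and 26.3 CPM and 87.6, 58.2, 58.7 and 65.4 CPM (1.09 ± 0.31 (SE), adjusted p = 0.0248). Tenocyte markers summed to 147 to 264 CPM and 218 to 268 CPM, endothelial markers to 387 to 551 CPM and 344 to 610 CPM, mural markers to 2111 to 3224 CPM and 1743 to 2481 CPM, and Schwann cell markers to 238 to 314 CPM and 351 to 471 CPM. The 6 macrophage markers summed to 51.8 to 75.6 CPM and 83.1 to 143 CPM, so that both this sum and that of the Schwann cell markers were higher in every TRF2MuSC-cKO library than in every control library. Of these 5 lists, Rgs5, a mural gene (1.33), was the member called. No marker was at 0 in all libraries of a group, although the sort removes Sca1+, CD31+ and CD45+ cells. The part of other cells in the chain values was not tested.

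The second comparison asked what injury does in control MuSCs. All 44 chains were tested, and 8 were lower and 5 higher at 3 DPI than in uninjured muscle, while 20.2% of all 15356 genes tested were called, 9.46% as lower and 10.8% as higher. Only uninjured control replicate 4 carried a record code found in control libraries at 3 DPI, in replicates 3 and 4. For the other libraries code and injury cannot be told apart. The chains that fell were Col5a3 (4.54-fold), Col15a1 (3.98-fold), Col19a1, Col4a1, Col6a1, Col26a1, Col3a1 and Col4a2. The chains that rose were Col6a3 (6.61-fold), Col1a2 (6.18-fold), Col14a1, Col1a1 (4.15-fold) and Col8a1. All 13 called chains were without overlap between the groups, against 12.3% of all genes with every 3 DPI library below and 12% with every one above. By class, 2 of 11 fibrillar chains were lower and 2 higher, 3 of 8 basement membrane chains were lower and none higher, and 3 of 25 other chains were lower and 3 higher.

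Among the fibrillar chains, those of type I rose. Col1a1 had 1441, 1764, 1081 and 1707 CPM in control libraries at 3 DPI (2.05 ± 0.22 (SE), adjusted p = 2.9e-10), against at most 501 CPM in uninjured ones. Col1a2 had 1113, 1383, 982 and 1438 CPM (2.63 ± 0.27 (SE), adjusted p = 5.0e-08), and even its lowest library was more than 3 times the highest uninjured one. Col3a1, in contrast, was lower, at 2984, 3725, 2273 and 3207 CPM (-0.76 ± 0.19 (SE), adjusted p = 0.00229). Its call was lost without uninjured control replicate 1 or without control 3 DPI replicate 3, and with limma, with library size alone, with all 16 libraries in 1 fit and with the rescaled table, and its adjusted p reached 0.0744 over these alternatives. Type V was split. Col5a3 fell to 422, 377, 340.3 and 273 CPM (-2.18 ± 0.20 (SE), adjusted p = 3.4e-12), whereas Col5a1 with 527, 703, 405 and 626 CPM (-0.26 ± 0.20 (SE), adjusted p = 0.408) and Col5a2 with 619, 731, 481 and 676 CPM (-0.06 ± 0.19 (SE), adjusted p = 0.878) overlapped with their uninjured values.

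The basement membrane chains that were called all fell. Col15a1 had 195, 185, 208 and 221 CPM at 3 DPI (-1.99 ± 0.19 (SE), adjusted p = 2.6e-11), less than the lowest uninjured control value of 599.9 CPM. Col4a1 had 655, 759.5, 837 and 825 CPM (-1.21 ± 0.19 (SE), adjusted p = 1.7e-06) and Col4a2 479, 561, 673 and 568 CPM (-0.72 ± 0.19 (SE), adjusted p = 0.00287). The call of Col4a2 was lost without uninjured control replicate 1, with library size alone and with limma, and that of Col6a1, given next, with all 16 libraries in 1 fit. Among the type VI chains, Col6a1 fell to 440.1, 525, 418 and 609 CPM (-1.05 ± 0.19 (SE), adjusted p = 1.6e-05) and Col6a3 rose to 548, 709, 439.6 and 569 CPM (2.72 ± 0.21 (SE), adjusted p = 1.8e-14), while Col6a2 with 343, 465, 305 and 450.1 CPM overlapped with its uninjured values (0.19 ± 0.20 (SE), adjusted p = 0.582). Col6a1 and Col6a3 thus moved apart again, as they did between the uninjured genotypes, in a comparison that shares the uninjured control libraries with that one.

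The other called chains were fewer in counts. Col14a1 rose to 102, 129, 103 and 159.6 CPM (2.45 ± 0.28 (SE), adjusted p = 1.2e-09) and Col8a1 to 116, 94.3, 54.1 and 103 CPM (1.53 ± 0.27 (SE), adjusted p = 1.5e-05). Col19a1 fell to 66.4, 48.6, 42.3 and 47.7 CPM (-1.68 ± 0.22 (SE), adjusted p = 4.2e-08) and Col26a1 to 21.6, 15.6, 28.5 and 29.6 CPM (-1.61 ± 0.29 (SE), adjusted p = 2.3e-05), a call that was lost with all 16 libraries in 1 fit. The mean of Col14a1 in uninjured control MuSCs, 8.24 APM, lay below the floor of 12.6 APM there. That of Col19a1 in control MuSCs at 3 DPI, 11.2 APM, lay below the floor of 14.9 APM. The size of these changes is therefore not exact. Col20a1, which was higher in uninjured TRF2MuSC-cKO MuSCs, had 63.3, 53.5, 79.7 and 19.7 CPM and overlapped with uninjured control MuSCs (0.05 ± 0.42 (SE), adjusted p = 0.955). None of the 27 chains given by range was called, with log2 fold changes of -0.72 to 1.07.

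Markers of other cells moved with injury. The 6 macrophage markers summed to 51.8 to 75.6 CPM in uninjured control libraries and to 4004 to 5133 CPM at 3 DPI. All 6 were called higher, while 10.8% of all genes tested were called higher and 9.46% lower. Of the 10 fibroadipogenic markers, 6 were called higher, among them Pdgfra (1.70 ± 0.27 (SE), adjusted p = 2.1e-06) and Dcn (1.59 ± 0.24 (SE), adjusted p = 7.5e-07), and 2 lower, and their sum was 1064 to 1278 CPM at 3 DPI. All 8 MuSC markers were called lower, with a sum of 777 to 1128 CPM. The tenocyte marker Thbs4 was called higher and the mural markers Acta2 and Notch3 lower, and the mural sum was 672 to 925 CPM at 3 DPI against 2111 to 3224 CPM in uninjured muscle. None of the endothelial and Schwann cell markers was called. The part of these cells in the rise of Col1a1, Col1a2, Col6a3, Col14a1 and Col8a1 was not tested.

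The same contrast in TRF2MuSC-cKO mice rests on the labels at 3 DPI. Here, too, only uninjured replicate 4 shared its record code with 3 DPI libraries of the contrast, replicates 3 and 4. Of 43 chains tested, 1 was lower and 4 were higher in the libraries labelled TRF2MuSC-cKO at 3 DPI than in the uninjured ones, against 1.61% and 2.43% of all 14578 genes tested (4.04% in either direction). Col5a3 fell to 284, 274, 110.3 and 231 CPM (-1.53 ± 0.30 (SE), adjusted p = 0.00607). Col1a1 had 1882, 809.6, 1324 and 1774 CPM at 3 DPI (1.72 ± 0.32 (SE), adjusted p = 0.00457), Col1a2 had 1539.9, 792, 1231 and 1439 CPM (1.74 ± 0.31 (SE), adjusted p = 0.00285), and both were higher in every library than in every uninjured TRF2MuSC-cKO library. Col6a3 with 936, 501, 349.6 and 966 CPM (1.74 ± 0.32 (SE), adjusted p = 0.0041) and Col14a1 with 111, 113, 85.5 and 128 CPM (1.45 ± 0.32 (SE), adjusted p = 0.0145) were the other chains that rose. The mean of Col14a1 in uninjured TRF2MuSC-cKO MuSCs, 16.6 APM, lay below the floor of 22.1 APM, so the size of its rise is not exact. Over all genes, 6.7% had every 3 DPI library below and 6.9% every one above, and 4 and 6 of the chains did.

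Col15a1, which fell after injury in control MuSCs, had 132, 159, 112 and 126 CPM at 3 DPI and overlapped with its uninjured TRF2MuSC-cKO values (-0.33 ± 0.28 (SE), adjusted p = 0.665). Col3a1 had 3557, 1696, 1675 and 3011 CPM (1.09 ± 0.33 (SE), adjusted p = 0.0726), the opposite sign to its value in control MuSCs, and was not called. Col4a1 had 493, 569.7, 198 and 472 CPM, below every uninjured TRF2MuSC-cKO library, without a call (-0.96 ± 0.30 (SE), adjusted p = 0.0864), and Col4a2 had 365, 383, 364 and 391 CPM (-0.52 ± 0.23 (SE), adjusted p = 0.27). Col5a1 had 655, 422, 509.5 and 796 CPM (0.80 ± 0.26 (SE), adjusted p = 0.101) and Col5a2 853, 371, 431 and 712 CPM (1.11 ± 0.31 (SE), adjusted p = 0.0524). Col6a1 had 701, 351, 83.1 and 899 CPM (0.27 ± 0.48 (SE), adjusted p = 0.868) and Col6a2 584, 257, 231 and 721 CPM (0.86 ± 0.33 (SE), adjusted p = 0.193). Of the chains with fewer counts, Col8a1 had 127, 64.6, 38.4 and 123 CPM (0.99 ± 0.43 (SE), adjusted p = 0.253), Col19a1 63.1, 71.5, 8.68 and 45.4 CPM (-1.19 ± 0.47 (SE), adjusted p = 0.202), Col20a1 78.3, 99.2, 57.0 and 90.9 CPM (-0.79 ± 0.28 (SE), adjusted p = 0.147) and Col26a1 42.1, 21.9, 0 and 6.99 CPM (-0.71 ± 0.89 (SE), adjusted p = 0.786), with the lowest value of each in replicate 3. These chains were given as values because none passed the test.

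The count of called chains turned on replicate 3 at 3 DPI and on the fit. With every library kept, Col3a1 and Col5a2 were also called higher in 1 fit of all 16 libraries. Col5a2 was called higher with DESeq2 and with library size alone, too. Without replicate 3, 1 chain was lower and 9 were higher, against 3.3% and 5.16% of all 15547 genes tested. Col14a1, Col1a1, Col1a2 and Col6a3 were then joined by Col3a1 (1.26 ± 0.28 (SE), adjusted p = 0.00206), Col5a1 (0.89 ± 0.25 (SE), adjusted p = 0.0133), Col5a2 (1.26 ± 0.27 (SE), adjusted p = 0.0015), Col6a2 (1.10 ± 0.26 (SE), adjusted p = 0.00391) and Col8a1 (1.26 ± 0.34 (SE), adjusted p = 0.0107), and Col5a3 stayed lower (-1.28 ± 0.24 (SE), adjusted p = 0.000284). Leaving out any of the other libraries gave 0 to 3 called chains, with 0 without uninjured TRF2MuSC-cKO replicate 4. Of all genes, 2.28 to 2.89% were called in these fits. Col14a1 was called in none of them, Col1a1, Col5a3 and Col6a3 in some, and Col1a2 in all but that without uninjured TRF2MuSC-cKO replicate 4. A block for the replicate number lost the calls of Col5a3, Col6a3 and Col14a1, and no filter that of Col14a1. The biological coefficient of variation, the spread between replicates beyond counting error, was 0.523 in this comparison and 0.276 in the injury comparison of control MuSCs. The counts of calls in these comparisons therefore rest on unequal spreads, and the difference between the comparisons is read from the interaction. In this comparison, too, markers of other cells moved, with 5 of 6 macrophage markers called higher (median log2 fold change 4.03, sums of 83.1 to 143 CPM in uninjured and 1628 to 4643 CPM in 3 DPI libraries), 7 of 8 MuSC markers called lower (median -2.11) and none of 9 tested fibroadipogenic markers called. With every library kept, 1.61% of all genes tested were called lower and 2.43% higher in this comparison. The part of these cells in the chain values was not tested.

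At 3 DPI the genotypes were compared in the libraries as labelled. No chain of 42 tested was called, as was no gene among all 14559 tested (0%), while 5 chains had an unadjusted p under 0.05, as did 9.36% of all genes. DESeq2 and limma also called 0 chains, although they called 22 and 28 genes. These 5 were Col4a2 (-0.55 ± 0.19 (SE), adjusted p = 0.46), Col4a1 (-0.79 ± 0.28 (SE), adjusted p = 0.465), Col15a1 (-0.57 ± 0.21 (SE), adjusted p = 0.479), Col6a4 (0.90 ± 0.33 (SE), adjusted p = 0.473) and Col24a1 (1.45 ± 0.60 (SE), adjusted p = 0.514). In Col4a1, Col4a2 and Col15a1 every library labelled TRF2MuSC-cKO lay below every control library, which 4.87% of all genes did, and in Col6a4 every one lay above, which 2.97% did. For Col4a2 the values were 479, 561, 673 and 568 CPM in control and 365, 383, 364 and 391 CPM in the labelled libraries. Without replicate 3 no chain was called, against 16 of 15430 genes (0.104%). Col24a1 had 50.2, 55.4, 227 and 30.3 CPM in the labelled libraries, with replicate 3 far above the others, and gave 0.42 ± 0.38 (SE), adjusted p = 0.696 without it, while the other 4 gave -0.57 ± 0.20 (SE), adjusted p = 0.228 for Col4a2, -0.57 ± 0.20 (SE), adjusted p = 0.221 for Col4a1, -0.52 ± 0.22 (SE), adjusted p = 0.309 for Col15a1 and 0.96 ± 0.31 (SE), adjusted p = 0.189 for Col6a4. With the libraries that carry a record code found in both genotypes, 2 against 2, no chain was called either, against 1 of 15502 genes. The log2 fold changes there were -0.47 for Col4a2, -0.40 for Col4a1, -0.37 for Col15a1, 0.92 for Col6a4 and 0.24 for Col24a1.

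Col3a1, with 2984, 3725, 2273 and 3207 CPM in control and 3557, 1696, 1675 and 3011 CPM in the labelled libraries, overlapped at 3 DPI (-0.26 ± 0.28 (SE), adjusted p = 0.788). So did Col5a3 (-0.61 ± 0.28 (SE), adjusted p = 0.532), Col5a1 (0.12 ± 0.25 (SE), adjusted p = 0.904), Col5a2 (-0.05 ± 0.27 (SE), adjusted p = 0.971), Col6a1 (0.06 ± 0.49 (SE), adjusted p = 0.979) and Col6a3 (0.32 ± 0.31 (SE), adjusted p = 0.762). The type I chains gave log2 fold changes of -0.01 ± 0.28 (SE) for Col1a1 and 0.07 ± 0.24 for Col1a2. The biological coefficient of variation was 0.495 at 3 DPI and 0.297 between the genotypes in uninjured muscle, and a p that misses the threshold does not show that the genotypes were alike. The MuSC markers summed to 777 to 1128 CPM in control and 428 to 593 CPM in the labelled libraries, without overlap, and so were lower beside Col4a1, Col4a2 and Col15a1. All 8 MuSC markers and all 6 macrophage markers had log2 fold changes below 0, and none was called. The macrophage markers summed to 4004 to 5133 and 1628 to 4643 CPM and the fibroadipogenic markers to 1064 to 1278 and 559 to 1286 CPM, both with overlap. The part of these markers in the chain values was not tested.

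Whether the genotype difference changed with injury was tested as an interaction over all 16 libraries. None of the 44 chains was called, against 3 of 16822 genes (0.0178%, all lower), and 7 chains had an unadjusted p under 0.05, as did 5.74% of all genes. The largest values, positive where the genotype difference was less negative at 3 DPI than in uninjured muscle, were those of Col3a1 (1.96 ± 0.40 (SE), adjusted p = 0.12) and Col15a1 (1.77 ± 0.34 (SE), adjusted p = 0.0635). Col6a1 (1.44 ± 0.57 (SE), adjusted p = 0.757), Col5a2 (1.28 ± 0.38 (SE), adjusted p = 0.529), Col5a1 (1.17 ± 0.36 (SE), adjusted p = 0.547), Col5a3 (0.76 ± 0.37 (SE), adjusted p = 0.862) and Col6a3 (-0.88 ± 0.39 (SE), adjusted p = 0.819) were the rest. Without replicate 3 of the libraries labelled TRF2MuSC-cKO at 3 DPI, 3 chains were called as higher, against 0.0227% of 17610 genes, Col15a1 (1.73 ± 0.32 (SE), adjusted p = 0.00588), Col3a1 (2.00 ± 0.36 (SE), adjusted p = 0.00588) and Col6a1 (1.67 ± 0.32 (SE), adjusted p = 0.00849). DESeq2 called Col15a1 and Col3a1 as higher, against 0.0535% of all genes, and limma called Col15a1, against 0.268%. The adjusted p of Col15a1 ran from 0.000541 to 0.4 over its alternatives.

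Collagen biosynthesis was read from 28 genes for the modification, folding, secretion and trimming of the chains. In uninjured muscle 3 of the 27 tested were lower in TRF2MuSC-cKO MuSCs and none was higher, against 2.63% and 0.584% of all genes. P4hb, a subunit of prolyl 4-hydroxylase, had 376, 301, 274 and 350.0 CPM in control and 89.9, 184, 160.3 and 215 CPM in TRF2MuSC-cKO libraries (-0.88 ± 0.21 (SE), adjusted p = 0.00613). Serpinh1, the collagen chaperone HSP47, had 513, 339, 323 and 409 CPM and 168, 137, 303 and 188 CPM (-0.87 ± 0.21 (SE), adjusted p = 0.00873). Fkbp10, a folding enzyme of the endoplasmic reticulum, had 78.6, 62.1, 82.6 and 106 CPM and 29.6, 33.2, 35.8 and 38.1 CPM (-1.14 ± 0.28 (SE), adjusted p = 0.00741). None of the 3 overlapped between the genotypes, and the median log2 fold change of the list was -0.19 against 0.058 over all genes.

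After injury in control MuSCs, 5 of the 28 biosynthesis genes were higher and 2 lower, against 10.8% and 9.46% of all genes. The procollagen C-proteinase enhancer Pcolce (1.52 ± 0.27 (SE), adjusted p = 2.3e-05), P4hb (1.06 ± 0.19 (SE), adjusted p = 2.6e-05), the cyclophilin Ppib (0.89 ± 0.21 (SE), adjusted p = 0.00112), the lysyl hydroxylase Plod1 (0.87 ± 0.25 (SE), adjusted p = 0.00763) and the N-propeptidase Adamts2 (0.82 ± 0.23 (SE), adjusted p = 0.00546) rose. The C-proteinase Bmp1 (-1.36 ± 0.20 (SE), adjusted p = 4.4e-07) and the prolyl hydroxylase family member P3h3 (-0.93 ± 0.29 (SE), adjusted p = 0.0129) fell. In libraries labelled TRF2MuSC-cKO at 3 DPI against uninjured ones, Bmp1 was called, as lower (-1.23 ± 0.26 (SE), adjusted p = 0.0091), against 1.61% of all genes. Without replicate 3 at 3 DPI, Bmp1 was lower and P4hb, Pcolce, Plod1 and Ppib were higher, against 3.3% and 5.16% of all genes. Between the genotypes at 3 DPI none of the 28 was called, with 1 at an unadjusted p under 0.05, against 9.36% of all genes.

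Of the 15 tested collagen receptor genes, 3 were lower and 1 was higher in uninjured TRF2MuSC-cKO MuSCs, against 2.63% and 0.584% of all genes. Calcr, which binds collagen V, had 149, 131, 131 and 233 CPM in control and 42.6, 55.1, 80.2 and 58.6 CPM in TRF2MuSC-cKO libraries (-1.32 ± 0.24 (SE), adjusted p = 0.000307). Antxr2, a receptor that takes up collagen VI, had 207, 199, 188 and 214 CPM and 68.6, 95.6, 91.6 and 92.6 CPM (-1.09 ± 0.21 (SE), adjusted p = 0.000491), and Itgb1, the β1 chain shared by the collagen-binding integrins, had 397, 318, 227 and 331 CPM and 134, 159, 159 and 223 CPM (-0.79 ± 0.20 (SE), adjusted p = 0.0118). These 3 did not overlap between the genotypes. The proteoglycan Cspg4, also known as NG2, was higher, with overlap (0.88 ± 0.23 (SE), adjusted p = 0.0172). After injury in control MuSCs, Calcr (-3.32 ± 0.27 (SE), adjusted p = 1.3e-13), Mrc2, which internalises collagen (-1.27 ± 0.20 (SE), adjusted p = 1.7e-06), Antxr2 (-1.25 ± 0.20 (SE), adjusted p = 2.2e-06) and the receptor kinase Ddr1 (-1.18 ± 0.23 (SE), adjusted p = 6.3e-05) fell, and Lair1, an inhibitory receptor of leukocytes (2.28 ± 0.34 (SE), adjusted p = 6.1e-07), and Adgrg1, a receptor of type III collagen (0.96 ± 0.30 (SE), adjusted p = 0.0134), rose, which made 4 lower and 2 higher against 9.46% and 10.8% of all genes. None of the 15 was called after injury in the libraries labelled TRF2MuSC-cKO. Of these, 3 had an unadjusted p under 0.05, as did 16.4% of all genes. Without replicate 3 at 3 DPI, Calcr and Ddr1 were lower and Lair1 was higher, against 3.3% and 5.16% of all genes. None was called between the genotypes at 3 DPI, with 0 at an unadjusted p under 0.05, against 9.36% of all genes.

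Several chains lie side by side in the genome (GRCm38, GENCODE M21). Col4a1 (chr8:11198423-11312826, minus strand) and Col4a2 (chr8:11312805-11449287, plus strand) stand head to head and overlap by 22 bases, and both were lower in uninjured TRF2MuSC-cKO MuSCs and after injury in control MuSCs. Col3a1 (chr1:45311538-45349706, plus strand) and Col5a2 (chr1:45374321-45503282, minus strand) stand tail to tail, 24614 bases apart. Both were lower in uninjured TRF2MuSC-cKO MuSCs, but after injury in control MuSCs Col3a1 alone of the pair was called. Col6a2 (chr10:76595762-76623630) and Col6a1 (chr10:76708792-76726168) lie on the minus strand 85161 bases apart, and Col6a1 alone of that pair was called in either comparison. The type I genes are unlinked, with Col1a1 at chr11:94936224-94953042 and Col1a2 at chr6:4504814-4541544, both on the plus strand. Col15a1 (chr4:47208161-47313167, plus strand), Col5a3 (chr9:20770050-20815067, minus strand) and Col6a3 (chr1:90765923-90843971, minus strand) have no other chain beside them. Exons of Col15a1, Col4a2 and Col5a1 overlap those of transcripts without a known protein on the opposite strand, whose reads could be included in their counts if counting did not use the strand, which is not stated. Exons of Col20a1 and Col3a1 overlap transcripts of that kind on the same strand, a microRNA in Col3a1, which strand cannot separate.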

How the data were processed

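MuSCs of control and TRF2MuSC-cKO mice, uninjured or at 3 DPI, gave 16 rRNA-depleted CORALL total RNA libraries, 4 per group, with groups and replicate numbers from the sample labels. Per the submitters' processing notes, the authors trimmed reads with Trim Galore 0.6.7, aligned them with STAR 2.6.1d to GRCm38 and quantified them with Salmon 1.5.2, while the study's methods name a later STAR version. The authors deposited estimated counts per gene that are not normalized, and a further table of estimated counts that follow abundance per length and sum to each library's total, from which APM was computed here. Whether molecular identifiers were used to collapse reads is not given in the sources used here, nor is the annotation release.

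Counts were rounded and analysed in R 4.3.3. Each pairwise comparison used its own 8 libraries, filterByExpr, TMM and the robust quasi-likelihood test of edgeR 4.0.16. The SE was derived from the fold change and its quasi-likelihood F. Alternatives were no filter, library size alone, median-of-ratios size factors, DESeq2 1.42.0, limma 3.58.1 on log2 CPM (prior count of 2), 1 fit of all 16 libraries, a block for the replicate number, the rescaled table and leaving out each library. CPM values printed use TMM over all 16 libraries. Positions are from GENCODE M21 and start-site sequences from RefSeq.

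All 44 chains may be named. Values in every library were given for chains called in any comparison, for Col15a1, Col3a1, Col5a3 and Col6a1, and for the 5 most abundant chains of each group. Outside the family, Terf2, Calcr and called genes of the biosynthesis, receptor and cell type lists may be named, while Pdgfra in uninjured muscle and Pax7 were chosen after their values were seen. Members and lists were chosen with earlier results of these data known. No 2 libraries of a group agreed within sampling noise (lowest chi-square per degree of freedom 2.79). Each library label holds a code whose first part is common to several libraries, of both genotypes in 1 case, and the labels do not say whether it marks an animal, a litter or a cage, so p-values measure only the spread between these libraries, which may share animals or litters. The procedure was tested on simulated data. A change of 2 on the log2 scale was recovered in 90% of cases between the uninjured genotypes and in 91% for injury in control MuSCs. It was recovered in 26% between the genotypes at 3 DPI, 33% for injury in TRF2MuSC-cKO MuSCs and 20% for the interaction. A change of 1 on the log2 scale was recovered in 29% between the uninjured genotypes and in 35% for injury in control MuSCs. That change was recovered in 0% between the genotypes at 3 DPI, 1% for injury in TRF2MuSC-cKO MuSCs and 0% for the interaction.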

Additional observations from a re-analysis of the deposited data

Results flagged for a closer look

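Of 84 sets of 4 libraries examined (the 17 chains given in full and the sums of the 3 classes and of all chains, in each group), 2 had a library far from the other 3, and chance alone marks about 1 in 20. Col14a1 stood at 24.5 CPM in uninjured TRF2MuSC-cKO replicate 4, while the other 3 libraries of that group had 41.5 to 45.0 CPM. Col20a1 stood at 177 CPM in uninjured TRF2MuSC-cKO replicate 2, against 116 to 126 CPM in the others of the group.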

How the results depend on the processing

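In the uninjured genotype comparison, 11 chains were called, with 8 to 11 when 1 library was left out, 12 with DESeq2 and with no filter, and 5 with limma (3 lower, 2 higher), 5 with all 16 libraries in 1 fit (all lower) and 1 (Col15a1) with the rescaled table. The last 3 of these called 2.13%, 0.487% and 0.101% of all genes, in place of 3.22%. Leaving out 1 library called 1.73 to 3.76%, DESeq2 4.43% and no filter 2.53%. In the injury comparison of control MuSCs, 13 chains were called, with 11 to 13 when 1 library was left out and 10 to 13 otherwise. Of all genes, 16.2 to 20.5% were called when 1 library was left out and 9.48 to 20.6% otherwise, in place of 20.2%. In that of TRF2MuSC-cKO MuSCs, the 5 calls became 3 with limma, 0 with the rescaled table and 0 to 10 when 1 library was left out. DESeq2 and library size alone added Col5a2 as higher, and the fit of all 16 libraries added Col3a1 and Col5a2. Of all genes, 7% were called with limma, 1.64% with the rescaled table and 2.28 to 8.46% when 1 library was left out, in place of 4.04%. The interaction had 0 calls, 2 with DESeq2, 1 with limma and 0 to 3 when 1 library was left out. These alternatives called 0.143%, 0.731% and 0.00565 to 0.0738% of all genes. Between the genotypes at 3 DPI every alternative gave 0, against 0 to 0.192% of all genes. The cause of these differences was not tested. For the 17 chains given in full, 1400 of 1495 alternative values kept their side of the threshold, 79 lost and 16 gained a call. None of the called values changed sign. Only the calls of the main fits could be lost, 11 between the uninjured genotypes, 13 for injury in control and 5 in TRF2MuSC-cKO MuSCs. The 1400 include values of chains called in neither fit, so their share does not measure how stable the calls are.

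With library size alone, the all-gene median log2 fold change was 0.244 in place of 0.058 in the uninjured genotype comparison and 0.229 in place of 0.066 in the injury comparison of control MuSCs. Calls in the former were then 7 lower and 3 higher, in place of 9 and 2. Same-numbered libraries of different groups did not deviate together (correlations of -0.11 to 0.11). This gave no sign that the numbers pair libraries, but low correlations of noisy deviations cannot exclude it. Replicates 1 and 2 at 3 DPI, which share a record code between the genotypes, gave -0.081 and 0.015. With the replicate number as a block, 2 chains were called after injury in TRF2MuSC-cKO MuSCs in place of 5, and 11, 13, 0 and 0 elsewhere, as without it. Of all genes, 2.5% were called in the first of these and 3.82%, 18.5%, 0% and 0.00594% elsewhere. Ratios of chains from the unscaled counts, an alternative chosen after seeing the data, moved by more than 1 SD in 14 of 28 cases. Relative to uninjured control MuSCs, Col3a1 to Col1a1 was 5.46 times lower in uninjured TRF2MuSC-cKO MuSCs with either table, and Col6a1 to Col6a3 was 6.34 times lower with the rescaled and 5.91 times lower with the unscaled one. The means of Col6a1 to Col6a3 themselves moved. In uninjured control, uninjured TRF2MuSC-cKO, control 3 DPI and labelled TRF2MuSC-cKO 3 DPI libraries they were 12.3, 2.08, 0.891 and 0.655 from unscaled counts. From the rescaled table they were 32.2, 5.09, 2.15 and 1.54. Library totals of 620506 to 1351130 counts limit the scarce chains.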
